A study of Anguilla japonica with 6 samples.

Results

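Of 32359 genes in the deposited expression table, 60 carry a symbol of a solute carrier family that moves amino acids, small peptides or neurotransmitters across membranes. They were taken by symbol alone (families slc1a, slc3a, slc6a, slc7a, slc15a, slc17a, slc18a, slc32a, slc36a, slc38a and slc43a), without use of their values. No row of slc32a entered, and genes with only a LOC identifier could not. RNA-seq had been run on pituitaries of female Japanese eel (Anguilla japonica), with 3 libraries labelled matured and 3 labelled pre-matured. All 6 are of 1 tissue and 1 sex, and the labels state age only as matured or pre-matured and give neither a treatment nor whether each library is 1 animal. P-values therefore measure the spread between these libraries, which may be in part technical.

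Amino acid carriers feed protein synthesis and signal nutrient supply, while neurotransmitter carriers either clear a transmitter from outside the cell or load it into vesicles. At the cell surface, uptake is driven mostly by the sodium gradient or by exchange of one amino acid for another. In vesicles and lysosomes many carriers draw on the acidity or the membrane voltage that a proton pump sets up. In a pituitary these genes serve hormone cells, which make and store large amounts of protein, and also the nerve endings and glia that reach the gland from the brain.

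Expression is given as FPKM, in which read numbers are divided by the length of the gene and the depth of the library, so that levels of different genes can be set side by side. Depths rebuilt from the values were 16033675 to 19619964 reads in the matured group and 18206029 to 19276653 reads in the pre-matured group. Tests were run with limma on log2(FPKM + 1), a scale that understates changes of weakly expressed genes, for genes with at least 1 FPKM in at least 3 libraries. A gene passed at a Benjamini-Hochberg adjusted p under 0.05 over all 17887 genes tested. Pituitary markers were present: growth hormone gh1 ranged from 9484 to 28533 FPKM in the matured group and from 1321 to 3141 FPKM in the pre-matured group. The prolactin symbol prl was at 0.0436 FPKM in matured 1 and listed at 0 in the other libraries. In such bulk tissue, fewer cells of a type and less RNA per cell cannot be told apart.

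Of the 60 transporter genes 45 were tested, and 10 were higher and 5 lower in matured pituitaries. These are 22.2% and 11.1% of those tested, where 23.4% of all genes were higher and 10% lower, so the family as a whole stood near the background. With TPM, values rescaled to a common total, 15 of 48 tested members were higher and 2 lower, beside 6097 and 990 of 19478 genes. After quantile normalization 7 of 45 members were higher and 7 lower, beside 2913 and 2896 of 17887 genes. The median log2 fold change of the members was 0.28, against 0.23 for all genes. All 3 matured libraries lay above all pre-matured ones for 12 genes (26.7%, against 33.3% of all genes tested) and below them for 6 (13.3%, against 15.9%). The direction of small changes depends on scaling: the median of all genes was 0.53 with TPM and 0.01 with median-ratio scaling, so each log2 fold change below can be read against the 0.23 of all genes.

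**Figure D1:**
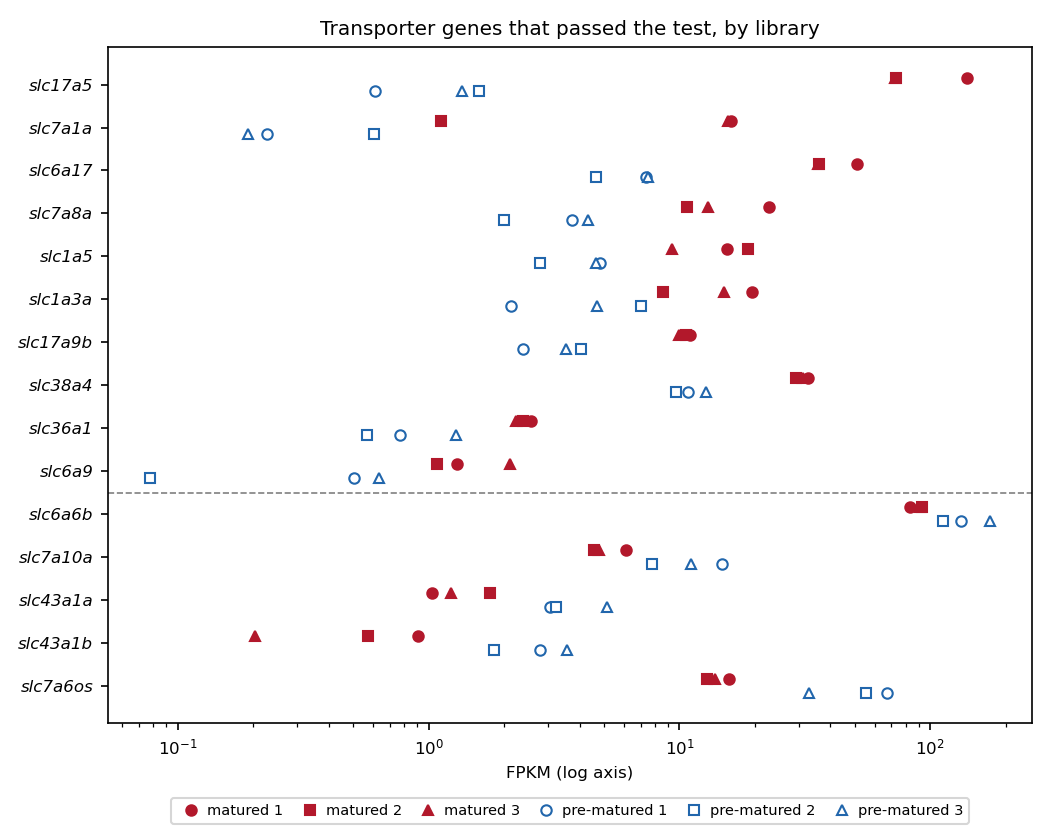
FPKM on a log axis of the 15 transporter genes that passed the test, with 1 symbol per library (filled, matured; open, pre-matured). The 10 genes above the dashed line were higher in matured pituitaries and the 5 below it lower; for each of them the groups do not overlap, and slc17a5 shows the widest gap.

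Summed over all 60 genes, transporter transcripts came to 871, 817 and 786 FPKM in matured 1, 2 and 3 and to 662, 639 and 768 FPKM in pre-matured 1, 2 and 3. As deposited, the matured sums lie above the pre-matured ones, with matured 3 (786 FPKM) and pre-matured 3 (768 FPKM) nearest. That order depends on scaling: median-ratio factors were 1.06 for matured 3 and 0.958 for pre-matured 3, and values are divided by them. In each library slc38a2 ranked first, with 163, 179.7 and 199 FPKM in the matured group and 178, 161 and 198 FPKM in the pre-matured group. This sodium-coupled carrier of small neutral amino acids differed by less than the spread between libraries (log2 fold change 0.02 ± 0.18 SE, limma adjusted p = 0.951). Below it the order differed between the groups: by mean level slc17a5 ranked 2 of 60 in the matured group and 41 in the pre-matured group, slc6a17 ranked 6 and 18, and slc7a6os ranked 14 and 3.

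**Figure D2:**
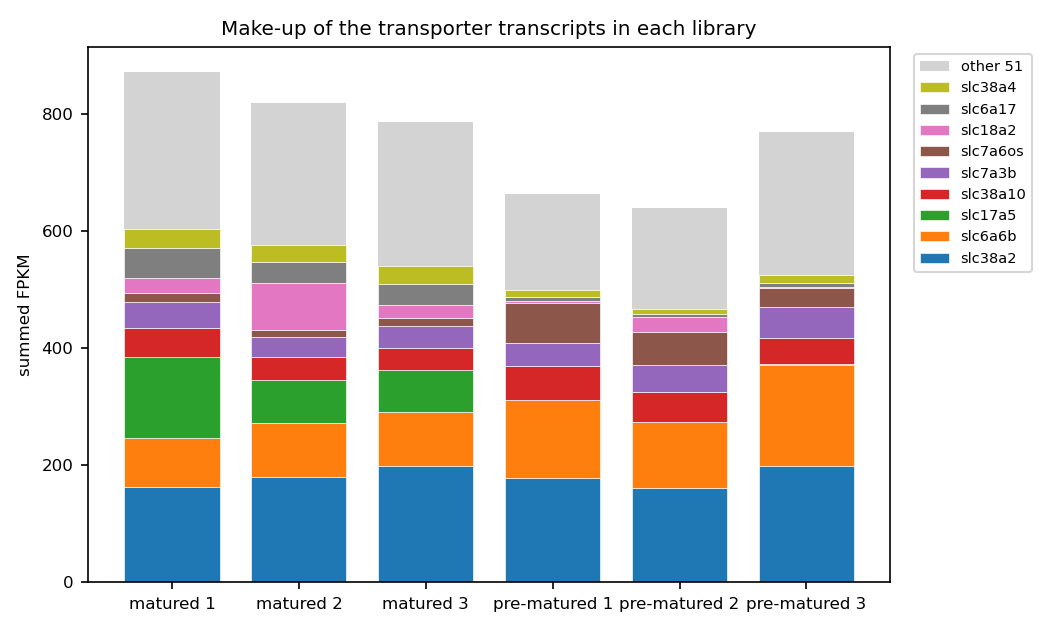
Stacked FPKM of the transporter genes in each library; the 9 genes with the highest mean are coloured and the other 51 are grey. The slc38a2 and slc6a6b segments are present in every library, while the slc17a5 segment is visible in the matured libraries alone, at 72.3 to 139.6 FPKM.

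Among the vesicular and lysosomal carriers (6 genes, 5 tested), 2 rose and 0 fell. Counts for such small groups of carriers or markers, here and below, can be read against the shares of all genes, 23.4% higher and 10% lower. They are descriptions, and no group was tested as a set. The lysosomal exporter of sialic acid, slc17a5, was at 139.6, 72.7 and 72.3 FPKM in the matured group, against 0.612, 1.59 and 1.36 FPKM in the pre-matured group. Every matured library stood far above every pre-matured one. The mean was 79.7 times higher, and the log2 fold change was 5.41 ± 0.32 (SE, limma adjusted p = 0.000284). Rebuilt reads numbered 7395, 4712 and 3885 in the matured group and 39, 98 and 82 in the pre-matured group, so the low level does not rest on a handful of reads.

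The other member that rose was slc17a9b, the vesicular nucleotide carrier that loads ATP into secretory vesicles. Its FPKM were 11, 10.6 and 9.95 in the matured group and 2.39, 4.04 and 3.54 in the pre-matured group (log2 fold change 1.43 ± 0.24 SE, limma adjusted p = 0.00355). The matured values were close together and did not overlap with the pre-matured ones. The vesicular monoamine carrier slc18a2 had 25.8, 80.0 and 21.1 FPKM in the matured group, against 3.75, 26.1 and 0.931 FPKM in the pre-matured group. The groups overlap because pre-matured 2 lies above matured 1 and 3, and the gene did not pass (log2 fold change 2.53 ± 0.95 SE, limma adjusted p = 0.0777). It passed without pre-matured 2 (limma adjusted p = 0.01) and with totals that leave out genes above 1% (limma adjusted p = 0.0461).

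The vesicular acetylcholine carrier slc18a3a was at 4.06, 0.747 and 4.02 FPKM in the matured group and 0.612, 0.442 and 1.18 FPKM in the pre-matured group, with matured 2 inside the pre-matured range (limma adjusted p = 0.0943). Carriers that load glutamate into vesicles were weak: slc17a8 had 0.936 to 1.64 FPKM in the matured group and 1.12 to 2.32 FPKM in the pre-matured group, and slc17a7a stayed under the filter. The summed level of the 6 genes was 182, 165 and 109 FPKM in the matured group, against 9.69, 33.4 and 8.80 FPKM in the pre-matured group. Without slc17a5 the sums were 42.4, 92.7 and 36.7 FPKM in the matured group and 9.08, 31.8 and 7.44 FPKM in the pre-matured group, which still do not overlap.

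Sodium and chloride dependent carriers (slc6a, 13 genes, 9 tested) moved in both directions, with 2 higher and 1 lower. The largest change was of slc6a17, which in rodents carries neutral amino acids into synaptic vesicles. It reached 51.2, 36.1 and 35.8 FPKM in the matured group, against 7.38, 4.66 and 7.5 FPKM in the pre-matured group (log2 fold change 2.49 ± 0.25 SE, limma adjusted p = 0.000902). The means differed 6.31-fold, and no library crossed over. Beside it, the neuron and nerve ending markers (14 genes in the table) summed to 319 to 509 FPKM in the matured group and 224 to 349 FPKM in the pre-matured group, with 1 of 9 tested higher (nefma), 1 lower (stmn2b) and th listed at 0 outside matured 2. Of these sums nefma alone held 118, 212 and 54.2 FPKM in matured 1, 2 and 3 and 21.9, 14.6 and 17.9 FPKM in pre-matured 1, 2 and 3. The median log2 fold change of the tested markers was -0.20. The part of these markers in the slc6a17 difference was not tested.

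The taurine carrier slc6a6b, second of the members in pre-matured pituitaries, was lower in matured ones. It stood at 82.9, 92.3 and 91.4 FPKM in the matured group and at 133, 112 and 173 FPKM in the pre-matured group (log2 fold change -0.62 ± 0.21 SE, limma adjusted p = 0.0487). The groups do not overlap, but the call is close to the threshold: it was lost with TPM (-0.30, limma adjusted p = 0.329), with totals that leave out genes above 1% (-0.29, limma adjusted p = 0.316), with quantile normalization (limma adjusted p = 0.0766), with no filter (limma adjusted p = 0.0723), with neither trend nor robust settings (limma adjusted p = 0.0735) and without any 1 library other than pre-matured 2 (limma adjusted p = 0.0841 to 0.137).

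The glycine carrier slc6a9 was at 1.30, 1.08 and 2.12 FPKM in the matured group, against 0.504, 0.0774 and 0.632 FPKM in the pre-matured group. The groups do not overlap, at a level of 58, 59 and 96 rebuilt reads in the matured group and 27, 4 and 32 in the pre-matured group. Only the matured libraries reached 1 FPKM, so slc6a9 entered the test through the group where it is high. Its call (log2 fold change 0.83 ± 0.28 SE, limma adjusted p = 0.0468) was lost without any 1 of the 6 libraries, with limma adjusted p between 0.0548 and 0.140. It was also lost with quantile normalization, where the log2 fold change was 0.37 (limma adjusted p = 0.392), with voom on rebuilt reads (adjusted p = 0.118), with a pseudocount of 0.1 (limma adjusted p = 0.0808) and with no filter (limma adjusted p = 0.0752). With median-ratio scaling and with a filter of 5 FPKM slc6a9 was not tested.

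Members of the same family that clear GABA, serotonin, creatine and proline did not pass. The GABA carrier slc6a11b was at 19.5, 30.1 and 22 FPKM in the matured group and 6.65, 16.5 and 28.4 FPKM in the pre-matured group. The creatine carrier slc6a8 had 8.81, 16.4 and 5.08 FPKM in the matured group and 11.9, 13.8 and 19.0 FPKM in the pre-matured group. Of the serotonin carriers, slc6a4a had 5.63 to 14.2 FPKM in the matured group and 6.75 to 11.7 FPKM in the pre-matured group. In all 3 genes the ranges of the groups overlap.

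**Figure D3:**
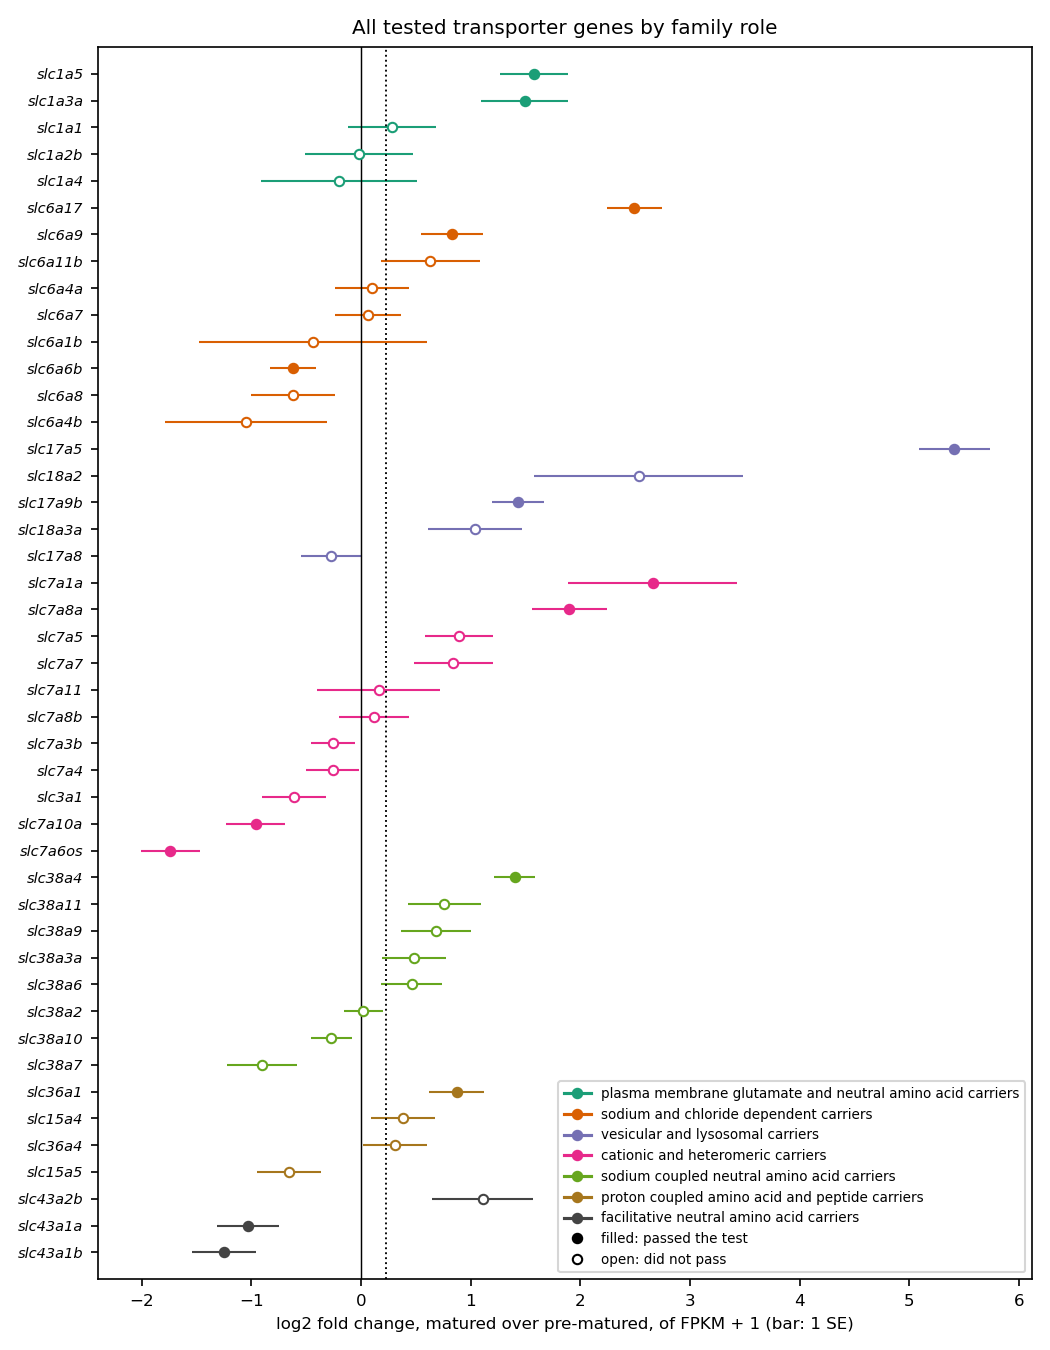
Log2 fold change (matured over pre-matured, of FPKM + 1) of the 45 tested transporter genes, by family role; bars are 1 SE, filled points passed the test, and the dotted line is the median of all genes, 0.23. Fold changes run from -1.74 for slc7a6os to 5.41 for slc17a5, and most genes lie within 1 unit of 0.

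Of the glutamate and neutral amino acid carriers of the plasma membrane (slc1a, 9 genes, 5 tested), 2 rose and 0 fell. The glutamine carrier slc1a5, which exchanges neutral amino acids, was at 15.5, 18.7 and 9.31 FPKM in the matured group, against 4.83, 2.79 and 4.67 FPKM in the pre-matured group. The lowest matured value was thus above the highest pre-matured one (log2 fold change 1.58 ± 0.31 SE, limma adjusted p = 0.00641). The glutamate carrier slc1a3a, in mammals a glial gene, was at 19.5, 8.57 and 15.1 FPKM in the matured group, against 2.13, 7.0 and 4.70 FPKM in the pre-matured group.

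The slc1a3a groups do not overlap, with matured 2 and pre-matured 2 nearest to each other (log2 fold change 1.49 ± 0.40 SE, limma adjusted p = 0.0229). Its call was lost without matured 1, matured 3 or pre-matured 1 (limma adjusted p = 0.0823, 0.0677 and 0.0570) and with voom on rebuilt reads (adjusted p = 0.0502). Glial markers (11 genes in the table) summed to 269 to 379 FPKM in the matured group and 317 to 411 FPKM in the pre-matured group. Most of that sum is vim, at 177 to 275 FPKM over all libraries, and fabp7b, at 62.4 to 115 FPKM. Of 7 glial markers tested 1 was higher (aldh1l1) and 0 lower, and sox2 was listed at 0 outside matured 3. The part of the glial markers in the slc1a3a difference was not tested. The other main glial glutamate carrier, slc1a2b, had 2.35, 3.71 and 3.75 FPKM in the matured group and 1.13, 2.97 and 8.22 FPKM in the pre-matured group (limma adjusted p = 0.981).

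The alanine and serine carrier slc1a4 varied more within the groups than between them. It was at 6.48, 4.26 and 24.6 FPKM in the matured group and at 25.4, 5.47 and 7.88 FPKM in the pre-matured group, so that 1 library of each group stood high (limma adjusted p = 0.852).

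Among cationic carriers and the heteromeric carriers (slc7a and slc3a, 14 genes, 11 tested), 2 rose and 2 fell. Heteromeric carriers pair a light chain of the slc7a family with a heavy chain; of the heavy chains slc3a1 alone was analysed here, at 1.04, 0.153 and 0.421 FPKM in the matured group and 0.999, 1.82 and 1.11 FPKM in the pre-matured group (limma adjusted p = 0.137). The light chain slc7a8a, which in mammals exchanges neutral amino acids and also carries thyroid hormone, was at 22.8, 10.7 and 13.0 FPKM in the matured group, against 3.72, 1.99 and 4.32 FPKM in the pre-matured group. All matured values were above all pre-matured ones (log2 fold change 1.90 ± 0.34 SE, limma adjusted p = 0.00455).

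Its paralog slc7a8b had 4.43, 3.53 and 2.56 FPKM in the matured group and 2.26, 2.43 and 5.15 FPKM in the pre-matured group and did not pass (log2 fold change 0.12 ± 0.32 SE, limma adjusted p = 0.806). For each library, log2(FPKM + 1) of slc7a8a less that of slc7a8b was taken. The differences were 2.13, 1.37 and 1.98 in the matured group and 0.54, -0.20 and -0.21 in the pre-matured group. The means of these differences are 1.78 apart. This pair was set side by side because slc7a8a had passed, so the gap is a description and no test of it is given. Reads can be shared between near-identical paralogs, and the sources used here do not say how they were assigned.

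The arginine and lysine carrier slc7a1a was at 16, 1.12 and 15.6 FPKM in the matured group, against 0.228, 0.607 and 0.190 FPKM in the pre-matured group. Matured 1 and 3 were high and matured 2 was low, though still above the pre-matured libraries, with 70 rebuilt reads against 815 and 809 (log2 fold change 2.66 ± 0.77 SE, limma adjusted p = 0.0331). Only the matured libraries reached 1 FPKM, so slc7a1a entered the test through the group where it is high. The call was lost without any 1 library other than matured 2 (limma adjusted p = 0.0632 to 0.0981), with voom on rebuilt reads (adjusted p = 0.277), with quantile normalization (limma adjusted p = 0.0809) and with no filter (limma adjusted p = 0.0554). Without matured 2 the log2 fold change was 3.66, with a limma adjusted p of 0.00107. With median-ratio scaling and with a filter of 5 FPKM slc7a1a was not tested. Endocrine cell markers (9 genes in the table, of which 2 of 7 tested rose and 1 fell) summed to 43644, 17415 and 43069 FPKM in matured 1, 2 and 3 and to 3564 to 3695 FPKM in the pre-matured group. In the matured group most of that sum is gh1 and lhb, a gonadotropin subunit gene, which were lowest of the matured libraries in matured 2, at 9484 and 5835 FPKM. In pre-matured 2 smtlb, at 1757 FPKM, stood above gh1, at 1321 FPKM. Of the other endocrine markers, smtlb and tbx19 were also lowest of the matured libraries in matured 2, at 1244 and 42.2 FPKM. In matured 3 tbx19 was close to that, at 42.9 FPKM. The gene fshb instead reached 514 FPKM in matured 2, against 4.44 and 0.899 FPKM in matured 1 and 3. Among the matured libraries pomca and pou1f1 were lowest in matured 3. The part of these markers in the slc7a1a level was not tested.

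Of the members that fell, slc7a10a encodes a light chain that carries small neutral amino acids, D-serine among them in mammals. It had 6.10, 4.55 and 4.76 FPKM in the matured group, against 14.8, 7.78 and 11.1 FPKM in the pre-matured group (log2 fold change -0.96 ± 0.27 SE, limma adjusted p = 0.0260). The groups do not overlap, yet the call was lost with TPM (-0.71, limma adjusted p = 0.0799), with totals that leave out genes above 1% (limma adjusted p = 0.0755) and without any 1 library other than pre-matured 2, with limma adjusted p of up to 0.0778.

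The lowest fold change of all members was that of slc7a6os, which enters by its symbol but encodes no transporter. The name marks a gene on the strand opposite slc7a6, and its yeast counterpart helps bring RNA polymerase II into the nucleus. It was at 15.8, 12.9 and 13.8 FPKM in the matured group, against 67.1, 55.3 and 32.9 FPKM in the pre-matured group (log2 fold change -1.74 ± 0.27 SE, limma adjusted p = 0.00294). Its partner slc7a6 had 0.0611, 0.266 and 0.121 FPKM in the matured group and is listed at 0 in every library of the pre-matured group. The sources used here do not say whether strand was used in counting, and without it reads of overlapping genes cannot be told apart. Leaving slc7a6os out, 4 transporter genes fell.

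Other members of this group did not pass. The cationic carrier slc7a3b had 44.1, 33.4 and 38.1 FPKM in the matured group and 40.5, 46.0 and 52.4 FPKM in the pre-matured group (limma adjusted p = 0.337). The leucine-preferring light chain slc7a5 had 8.15, 9.46 and 10.8 FPKM in the matured group and 5.20, 2.66 and 6.74 FPKM in the pre-matured group; the groups do not overlap, and it missed the threshold (log2 fold change 0.89 ± 0.31 SE, limma adjusted p = 0.0524). The cystine and glutamate exchanger slc7a11 had 0.207 to 1.97 FPKM in the matured group and 0 to 3.20 FPKM in the pre-matured group, with no separation of the groups.

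Of the sodium-coupled neutral amino acid carriers (slc38a, 10 genes, 8 tested) only slc38a4 passed. It reached 32.5, 29.1 and 31.2 FPKM in the matured group, against 10.8, 9.73 and 12.8 FPKM in the pre-matured group. Both groups were tight and far apart, with means 2.78-fold different (log2 fold change 1.40 ± 0.19 SE, limma adjusted p = 0.00203). It shares its transport type with slc38a2, which did not pass. The abundant slc38a10 had 48.6, 40.4 and 37.3 FPKM in the matured group and 57.3, 50.6 and 45.3 FPKM in the pre-matured group (limma adjusted p = 0.304).

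A pair of lysosomal members of that family did not pass, with fold changes in opposite directions. The lysosomal arginine sensor slc38a9, which acts upstream of the growth kinase mTORC1, had 7.03, 7.36 and 9.73 FPKM in the matured group and 2.66, 6.97 and 5.0 FPKM in the pre-matured group (limma adjusted p = 0.129). The lysosomal glutamine exporter slc38a7 had 0.687, 0.680 and 0.873 FPKM in the matured group, against 3.72, 1.14 and 2.44 FPKM in the pre-matured group (log2 fold change -0.90 ± 0.32 SE, limma adjusted p = 0.0595). Only the pre-matured libraries reached 1 FPKM, so slc38a7 entered the test through the group where it is high. In both genes the groups do not overlap as deposited. For slc38a9 matured 1 (7.03 FPKM) and pre-matured 2 (6.97 FPKM) are nearest, and their order depends on scaling. Median-ratio factors were 1.08 for matured 1 and 1.01 for pre-matured 2, and values are divided by them.

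Of the proton-coupled carriers (slc36a and slc15a, 5 genes, 4 tested) 1 rose. The amino acid carrier slc36a1, found on lysosomes and at the cell surface in mammals, had 2.57, 2.38 and 2.23 FPKM in the matured group, against 0.772, 0.566 and 1.29 FPKM in the pre-matured group (log2 fold change 0.87 ± 0.25 SE, limma adjusted p = 0.0296). The groups do not overlap. The call was lost with quantile normalization (0.45, limma adjusted p = 0.195), with median-ratio scaling (limma adjusted p = 0.0581) and without any 1 library other than pre-matured 3 (limma adjusted p = 0.0636 to 0.0904). Its relative slc36a4 had 3.57 to 5.23 FPKM in the matured group and 2.49 to 5.02 FPKM in the pre-matured group, and the lysosomal histidine and peptide carrier slc15a4 had 4.65 to 5.36 FPKM in the matured group and 2.63 to 5.85 FPKM in the pre-matured group; neither passed (limma adjusted p = 0.440 and 0.350).

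The facilitative carriers of large neutral amino acids (slc43a) were weakly expressed, and both slc43a1 paralogs fell. In matured libraries slc43a1a had 1.03, 1.75 and 1.23 FPKM, against 3.04, 3.23 and 5.14 FPKM in the pre-matured group (log2 fold change -1.03 ± 0.28 SE, limma adjusted p = 0.0237). For slc43a1b the values were 0.909, 0.575 and 0.203 FPKM in the matured group and 2.78, 1.82 and 3.56 FPKM in the pre-matured group (log2 fold change -1.25 ± 0.29 SE, limma adjusted p = 0.0136). Only the pre-matured libraries reached 1 FPKM, so slc43a1b entered the test through the group where it is high. Within each library, log2(FPKM + 1) of slc43a1a less that of slc43a1b was taken. The differences were 0.09, 0.81 and 0.89 in the matured group and 0.10, 0.59 and 0.43 in the pre-matured group. At levels this low the added 1 shrinks them, as in matured 3, with 1.23 FPKM for slc43a1a and 0.203 FPKM for slc43a1b. Neither paralog overlapped between groups, and their summed level was 1.94, 2.33 and 1.43 FPKM in the matured group and 5.82, 5.05 and 8.70 FPKM in the pre-matured group. The slc43a1a call was lost with TPM (limma adjusted p = 0.0685), with totals that leave out genes above 1% (0.0534 by the same test) and without matured 1, matured 3 or pre-matured 3 (limma adjusted p = 0.0875, 0.0735 and 0.0576), and that of slc43a1b without matured 3 (limma adjusted p = 0.0554).

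The third member, slc43a2b, lay in the other direction, with 4.29, 1.53 and 8.74 FPKM in the matured group and 0.885, 1.53 and 1.72 FPKM in the pre-matured group. Matured 2 fell inside the pre-matured range, and the gene did not pass (log2 fold change 1.11 ± 0.46 SE, limma adjusted p = 0.0953). It passed without matured 2 (log2 fold change 1.61, limma adjusted p = 0.0203), with TPM and with totals that leave out genes above 1% (limma adjusted p = 0.0450 and 0.0485).

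The spread within a group was wide for some carriers, and the choice of genes in this paragraph was made after their values were seen. The GABA carrier slc6a1b had 2.93, 1.01 and 2.94 FPKM in the matured group and 0.132, 1.70 and 24.7 FPKM in the pre-matured group, a 188-fold range in the pre-matured group. The serotonin carrier slc6a4b, at 1.84, 1.84 and 0.0907 FPKM in the matured group and 0.440, 3.80 and 10.4 FPKM in the pre-matured group, was also highest in pre-matured 3, as was slc1a2b. In the same library mbpa, a myelin gene among the glial markers, was at 96.3 FPKM. It ranged from 6.85 to 10.1 FPKM in the matured group and stood at 14.5 and 3.94 FPKM in pre-matured 1 and 2. Of the other glial markers, gfap, sox9a, aldh1l1 and plp1a were also highest of the pre-matured libraries there, at up to 3.37 FPKM. The markers fabp7b, vim, nkx2.1, aqp4 and mpz were not. Without pre-matured 3 the median log2 fold change of the tested members was 0.61 instead of 0.28, while that of all genes was 0.26. The part of these markers in the carriers' levels was not tested.

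**Figure D4:**
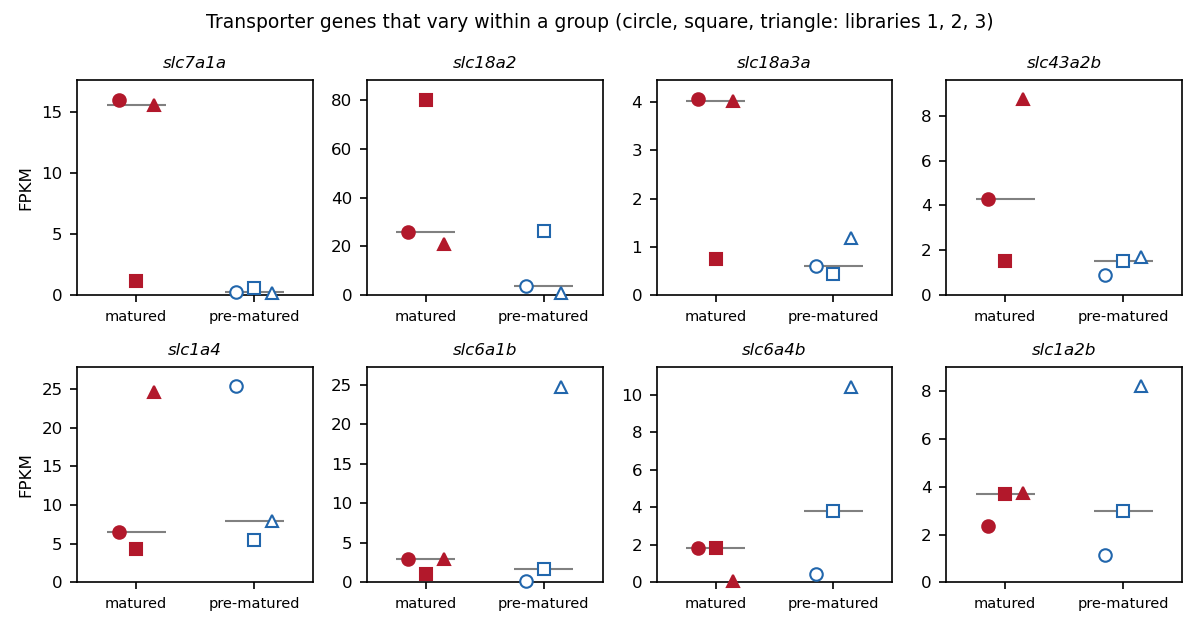
FPKM in each library of 8 transporter genes with a wide spread within a group; circles, squares and triangles are libraries 1, 2 and 3 and grey lines are group medians. Matured 2 stands low for slc7a1a, slc18a3a and slc43a2b and high for slc18a2, and pre-matured 3 stands high for slc6a1b, slc6a4b and slc1a2b.

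The 15 members that were not tested had at least 1 FPKM in fewer than 3 libraries. These were slc1a6, slc1a7a, slc1a8a, slc1a9, slc6a3, slc6a13, slc6a14, slc6a16a, slc7a2, slc7a6, slc7a9, slc15a2, slc17a7a, slc38a5b and slc38a8a. None of the 60 members was at 0 in all libraries, and 11 were listed at 0 in at least 1. Mitochondrial genes that every cell uses are also listed at 0 in this table, so a 0 is reported as listed. The dopamine carrier slc6a3 had 18, 9 and 2 rebuilt reads in the matured group and slc38a8a had 21, 6 and 83, and both are listed at 0 in the pre-matured group. In the other direction, slc6a14 had 0.0769, 0 and 0.0190 FPKM in the matured group and 0.272, 0.348 and 0.914 FPKM in the pre-matured group. For slc15a2 the values were 0.710, 0.418 and 0.309 FPKM in the matured group and 0.714, 0.954 and 1.15 FPKM in the pre-matured group.

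The arginine carrier slc7a2, singled out after its values were seen, had 2.68, 3.17 and 0.876 FPKM in the matured group, against 0.455, 0.412 and 0.361 FPKM in the pre-matured group. The groups do not overlap; with no filter on low values its log2 fold change was 1.12 and the limma adjusted p = 0.0588.

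Lists of related genes, chosen with earlier results of these data known, were set beside the carriers, matched by symbol. The shares of each list beside those of all genes are therefore a description. In the synthesis and breakdown of transmitters, 3 of 15 tested genes rose and 1 fell; the median log2 fold change was 0.22. These are 20% and 6.67% of the list, near the 23.4% and 10% of all genes. The glutamate decarboxylase gene gad3 was at 22.1, 1.21 and 23.2 FPKM in the matured group, and at 0.0797 FPKM in pre-matured 2 with a listed 0 in pre-matured 1 and 3 (log2 fold change 3.39 ± 0.87 SE, limma adjusted p = 0.0232). As with slc7a1a, matured 2 was far below the other matured libraries, and gad3 entered the test through the matured libraries alone. The aminotransferase got1 and the glycine cleavage gene amt also rose (log2 fold change 0.82 and 0.79). The gene that fell was csad, which makes a precursor of taurine, with 0.733, 0.441 and 1.16 FPKM in the matured group and 6.98, 1.13 and 5.67 FPKM in the pre-matured group (log2 fold change -1.46 ± 0.48 SE, limma adjusted p = 0.0475). With 1 library left out, 0 to 2 genes of this list rose and 0 or 1 fell. With TPM 4 rose and 0 fell, with quantile normalization 1 rose and 3 fell, by median-ratio scaling 1 was higher and 2 lower, and voom called 0 higher and 1 lower.

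Of the genes of amino acid sensing and mTORC1, 13 of 38 were higher and 4 lower (median log2 fold change 0.30). That is 34.2% higher, against 23.4% of all genes, and 10.5% lower, against 10%. The list mixes genes that promote mTORC1 with genes that restrain it, so these shares give no direction of signalling. Among genes that restrain it, deptor, akt1s1, castor2, nprl2, nprl3 and tsc2 were higher and depdc5 was lower. The lysosomal transcription factor gene tfeb rose to 6.55 ± 1.77 FPKM in the matured group, against 0.978 ± 0.444 FPKM in the pre-matured group (SD, n = 3 each; limma adjusted p = 0.00299), and mios, a subunit of a complex upstream of mTORC1, to 6.62 ± 0.432 FPKM across matured libraries, against 1.74 ± 0.408 FPKM across pre-matured libraries (SD, n = 3 each; limma adjusted p = 0.00338). The translation repressor gene eif4ebp3l fell to 24.0 ± 4.80 FPKM across matured libraries, against 82.6 ± 15.1 FPKM across pre-matured libraries (SD, n = 3 each; limma adjusted p = 0.00162). With median-ratio scaling and with voom, 9 rose and 8 fell, and with TPM 17 rose and 3 fell.

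The amino acid response, in which shortage acts through the kinase GCN2 and the factor ATF4 on genes of amino acid synthesis and tRNA charging, had 12 of 30 genes lower and 1 higher, with a median log2 fold change of -0.60. That is 40% lower, against 10% of all genes, and 3.33% higher, against 23.4%. Under the other scalings the median was between -0.98 and -0.30, with 10 to 16 genes lower; without matured 1, 7 fell. The transcription factor genes cebpb and atf3 fell to 39.2 ± 12.8 and 0.567 ± 0.344 FPKM in the matured group, against 176 ± 27.1 and 8.51 ± 2.02 FPKM in the pre-matured group (SD, n = 3 each; limma adjusted p = 0.00126 and 0.00115). For atf3 only the pre-matured libraries reached 1 FPKM, so it entered the test through the group where it is high. The asparaginyl-tRNA synthetase gene nars1 fell to 47.0 ± 11.3 FPKM across matured libraries, against 148 ± 36.2 FPKM across pre-matured libraries (SD, n = 3 each; limma adjusted p = 0.00279). The gene that rose, eif2ak3, encodes the kinase of the same pathway that responds to stress of the endoplasmic reticulum (log2 fold change 1.26 ± 0.25 SE, limma adjusted p = 0.00688). ATF4 itself has a pair of genes here, and neither passed: atf4a and atf4b had limma adjusted p of 0.0580 and 0.531.

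In glutathione synthesis and cystine handling 2 of 15 rose and 5 fell (median log2 fold change -0.16). These are 13.3% and 33.3% of the list, against 23.4% and 10% of all genes. The lysosomal cystine exporter gene ctns rose to 14.5 ± 0.802 FPKM in the matured group, against 4.77 ± 0.598 FPKM in the pre-matured group (SD, n = 3 each; limma adjusted p = 0.00228). The peroxidase genes gpx4b and gpx4a fell, with log2 fold changes of -1.54 and -1.06. With 1 library left out, 1 to 3 genes rose and 2 to 4 fell. With TPM 3 rose and 3 fell, and the median was 0.08.

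Among partners and regulators of carriers 6 of 21 rose and 6 fell (median log2 fold change 0.01). Each is 28.6% of the list, against 23.4% of all genes higher and 10% lower. The kinase genes sgk1 and sgk2b, whose products keep several carriers at the cell surface in mammals, fell to 4.79 ± 2.15 and 25.6 ± 8.06 FPKM in the matured group, against 27.2 ± 1.75 and 111 ± 17.2 FPKM in the pre-matured group (SD, n = 3 each; limma adjusted p = 0.00149 and 0.00135). Collectrin, cltrn, a membrane partner of slc6a carriers in mammalian kidney, was at 455, 60.2 and 452 FPKM in the matured group and 2.51, 2.51 and 1.37 FPKM in the pre-matured group, again with matured 2 the lowest matured value. Without matured 1 or matured 3, 3 of the list rose and 4 fell, and without pre-matured 1, 3 rose and 5 fell. With quantile normalization 3 rose and 6 fell, and with TPM 8 rose and 4 fell.

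**Figure D5:**
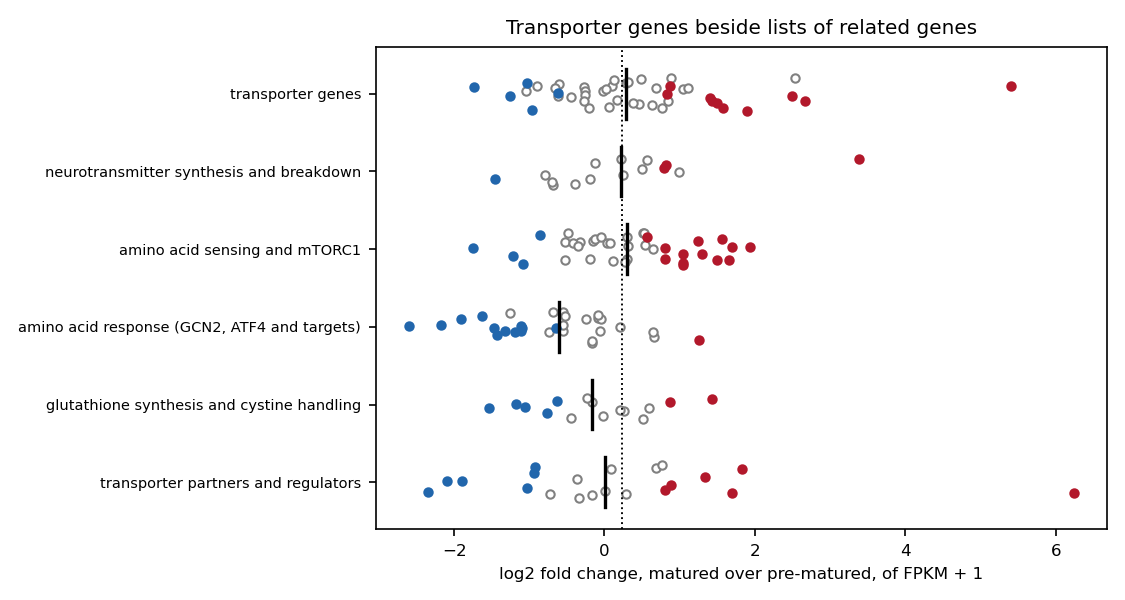
Log2 fold change (matured over pre-matured, of FPKM + 1) of each tested gene in the transporter families and in 5 lists of related genes; red and blue points passed the test as higher and lower, black ticks are list medians and the dotted line is the median of all genes. The median of the amino acid response list, -0.60, is the lowest of the 6.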

How the data were processed

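Each gene has 1 deposited value per library. The deposited values were read as FPKM from their form: they are not whole numbers and add up to a different total in each library (500088 to 713023), which RPKM would do as well. Per the labels' protocols, RNA came from TRIzol extraction and an NEBNext Ultra II kit. The submitters' processing notes name CASAVA 1.8; the aligner, the counter and the genome they used were not given in sources used here. The labels' age field set the groups, and numbers of replicates follow accession order and pair nothing. The members and gene lists were chosen with earlier results of these data known.

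Whole reads were rebuilt from the values, since reads, gene length and depth must all be whole: all 25782 genes above 0 in at least 2 libraries gave whole reads (tolerance 1e-06 reads), against 0 of 500 scrambled genes. Rebuilt reads made up 99.4% to 99.6% of the rebuilt depths and cover counting error only. Libraries of a group correlated at 0.920 to 0.947 over the genes tested, and libraries of different groups at 0.780 to 0.825. Over the 45 tested members these ranges were 0.815 to 0.949 and 0.547 to 0.780.

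The test was limma 3.58.1 (R 4.3.3; lmFit, then eBayes with trend and robust settings) on log2(FPKM + 1), for genes reaching 1 FPKM in 3 libraries or more, and was tested on simulated data. Fold changes are matured over pre-matured. Named by rule were all members that passed, the 2 tested members with the highest mean in each role group, paralogs of members that passed, and up to 3 passing genes of each list; every other gene given with values was chosen after its values were seen. Voom used rebuilt reads with median-ratio library sizes. Tables and figures were made with Python 3.11.15 (numpy 2.4.6, pandas 2.3.3) and plotted in matplotlib 3.10.9.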

Additional observations from a re-analysis of the deposited data

How the results depend on the processing

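The direction of the 15 calls held in all 218 recomputed values, and 7 members passed in each alternative run: slc17a5, slc6a17, slc38a4, slc17a9b, slc7a8a, slc1a5 and slc7a6os. Values are missing where a gene fell under the filter. With a filter of 5 FPKM these were slc6a9, slc7a1a, slc36a1, slc43a1a and slc43a1b, and with median-ratio scaling slc6a9 and slc7a1a. The count of higher members, 10, was 16 with totals taken without genes above 1% and 6 at an adjusted p under 0.01; leaving out 1 library gave 6 to 10. The count of lower members, 5, was 3 with a filter of 5 FPKM, 2 with TPM, 2 with totals without genes above 1%, 3 with a fold of at least 2 and 1 at an adjusted p under 0.01; leaving out 1 library gave 1 to 6. Over all genes 4184 were higher, against 2714 with a filter of 5 FPKM, 6282 with totals without genes above 1%, 1928 at an adjusted p under 0.01 and 2697 to 3910 with 1 library left out. The lower genes, 1797, were 990 with TPM, 1028 with totals without genes above 1%, 2896 after quantile normalization, 2810 by median-ratio scaling, 1116 with a fold of at least 2, 744 at an adjusted p under 0.01 and 1052 to 1661 with 1 library left out. Tests covered 17887 genes and 45 members in the main fit, 10757 and 27 with the 5 FPKM filter, and 19478 and 48 with TPM. Counts from these runs are therefore shares of different totals. Of all calls 70.0% were higher as deposited, 86.0% with TPM, 50.1% with quantile normalization and 53.5% with voom. The members' median, 0.28, was 0.60 with TPM, 0.51 with totals without genes above 1%, -0.04 with quantile normalization and 0.11 to 0.61 with 1 library left out, where the all-gene medians were 0.53, 0.51, -0.02 and 0.16 to 0.29. The cause was not tested beyond the construction of each alternative.

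Among the 24 members named by rule, the sign changes were all of members that did not pass. With TPM slc1a4, slc7a3b and slc38a10 were at 0.10, 0.06 and 0.05, and with totals without genes above 1% at 0.10, 0.07 and 0.05. With median-ratio scaling and voom slc38a2 was at -0.25 in both and slc7a8b at -0.09 and -0.10. With quantile normalization slc36a4 was at -0.04 and slc7a8b at -0.26. With 1 library left out slc1a4 ranged from -0.87 to 0.40 (0.01 and 0.27 also lay above 0), slc38a2 from -0.06 to 0.09 (-0.05 also lay below 0), and slc7a8b from -0.05 to 0.41 (-0.03 and -0.01 also lay below 0). Of the 21 other tested members 7 changed sign in 25 values, none of them called: slc1a1, slc1a2b, slc6a1b (0.85 without pre-matured 3, against -0.44), slc6a4a, slc6a7, slc7a4 and slc7a11. No paired analysis was possible because the labels give no replicate numbers that groups share. Depth limits the members under 100 reads a library, such as slc6a9.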
